A study of Mus musculus with 6 samples.

Results

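The 9 genes described here encode 3 matrix metalloproteases (Mmp8, Mmp9 and Mmp25), 5 transmembrane proteases of the ADAM family (Adam8, Adam10, Adam15, Adam17 and Adam19) and 1 tissue inhibitor of metalloproteases (Timp2). They were taken by name from 35853 genes over which transcript estimates had been summed, and all 9 were among the 11406 genes abundant enough to test. Their RNA was measured in blood neutrophils of WT BALB/C mice that carried an orthotopic 4T1 tumor, a tumour grown from a mouse mammary carcinoma line in the mammary gland, with blood taken 4 weeks after implantation. Red cells were lysed, Ly6G+ cells were sorted by surface Ly6C, and poly(A) RNA was sequenced from 3 Ly6C-high and 3 Ly6C-low libraries. Every library therefore came from a tumour-bearing animal. The labels do not state whether libraries came from separate mice or from pools, so the p-values measure only the spread between these libraries.

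Matrix metalloproteases are zinc-dependent enzymes made as inactive proenzymes that cut collagens and other matrix proteins. In neutrophils, the collagenase MMP8 is stored mainly in specific granules, the gelatinase MMP9 in gelatinase granules, and MMP25 is anchored to the membrane through a lipid tail. ADAM proteases sit in the membrane and release the outer parts of other membrane proteins, a step called shedding. TIMPs bind the active site of matrix metalloproteases and block it, and TIMP2 can also take part in activation of pro-MMP2 at the cell surface. These are RNA levels, and neutrophil granule proteases are largely made in the marrow before the cell enters blood.

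The libraries held 17192372 to 20973623 estimated counts each. As a check on the sort, Ly6c1 and Ly6c2 differed by 3.07 and 2.90 on the log2 scale, higher in Ly6C-high neutrophils (edgeR adjusted p = 0.00273 and 0.00382). Without Ly6C-low replicate 3 these adjusted p-values were 0.0620 and 0.0885. Along the first principal component over tested genes (32.8% of the variance) Ly6C-low replicate 3 lay at 38.0, and the remaining libraries between -19.7 and 3.91. The 10 neutrophil markers, which include Mmp8 and Mmp9, summed to 380861 to 383977 TPM in Ly6C-high and 346327 to 366905 TPM in Ly6C-low libraries, where TPM is a transcript level corrected for length and scaled to a fixed total per library. Most of that sum was S100a9, at 197881 TPM in Ly6C-high and 182181 TPM in Ly6C-low neutrophils, and S100a8, at 147363 TPM in Ly6C-high and 142503 TPM in Ly6C-low neutrophils. Of the 10 markers 9 had a log2 fold change above 0, and Csf3r was at -0.16. Ly6g alone had 1091, 1282 and 1049 TPM in Ly6C-high and 932, 1014 and 633 TPM in Ly6C-low libraries.

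The 9 genes spanned a wide range of levels. Mmp9 and Mmp8 led by a wide margin in both groups. Together the 9 genes took 0.395% ± 0.0263 of all TPM in Ly6C-high and 0.332% ± 0.0390 in Ly6C-low neutrophils (SD, n = 3 each). In Ly6C-high neutrophils the order of mean TPM was Mmp9, Mmp8, Mmp25, Adam8, Adam19, Timp2, Adam17, Adam10 and Adam15. Within that order the library ranges of Mmp25 and Adam8 overlapped, as did those of Adam19 and Timp2, and those of Adam17, Adam10 and Adam15 each with the next. In Ly6C-low neutrophils the order was the same except that Adam8 stood above Mmp25 with overlapping ranges, and Adam19 was clear of Timp2.

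**Figure D1:**
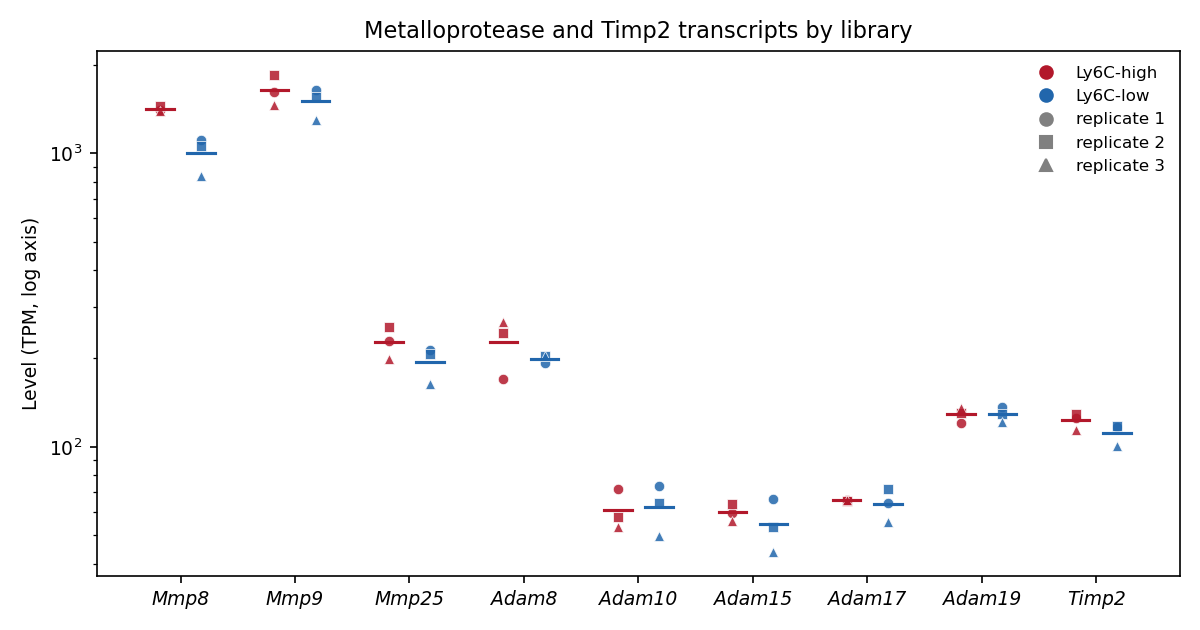
Level of each of the 9 genes in each library, in TPM on a log axis, with Ly6C-high libraries left of Ly6C-low libraries and a line at each group mean. Mmp8 is the only gene of the 9 whose TPM ranges do not overlap between the groups: 1395 to 1447 in Ly6C-high against 839 to 1106 in Ly6C-low libraries. The share of all genes without overlap was not counted on TPM. On counts scaled to library size it was 10.3% with Ly6C-high above and 10.9% with it below.

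The comparison asks whether neutrophils with high and low surface Ly6C differ in these transcripts. None of the 9 genes passed the threshold of adjusted p 0.05 in edgeR's quasi-likelihood test over all genes, in which 0.0351% of genes passed. With p left unadjusted, 4 of the 9 lay higher in Ly6C-high neutrophils at under 0.05 (Mmp8, Mmp25, Adam8 and Timp2) and 0 lower, where 6.92% of all genes tested lay higher at that level and 7.34% lower. DESeq2 called 1 of the 9, Mmp8, against 2.02% of the genes it gave an adjusted p, and limma voom called 0 of the 9, against 0.0438% of all genes. Without a filter on low counts edgeR called 1 of the 9, also Mmp8, against 2.13% of genes. In that fit the SE ran only from 0.106 to 0.117 over the 9 genes, against 0.102 to 0.184 in the main fit. Its p-values thus hardly used each gene's own spread between libraries, which limits every call of that fit given here. The fold change in the main fit was above 0 for 9 of 9 genes, against 49.2% of all genes. The median log2 fold change was 0.22 over the 9 genes and -0.00 over all genes. Scaled by library size alone, 8 of 9 lay above 0, and by TPM means 7 of 9. Without Ly6C-low replicate 3 the median over the 9 genes was 0.11, and Mmp8 passed the adjusted threshold in a fit where 0.189% of genes did. In that fit 2 of the 9 (Mmp8 and Timp2) were higher by unadjusted p, against 5.66% of all genes. Without Ly6C-high replicate 2 the count was 1 of the 9, and the share of all genes was not counted.

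**Figure D2:**
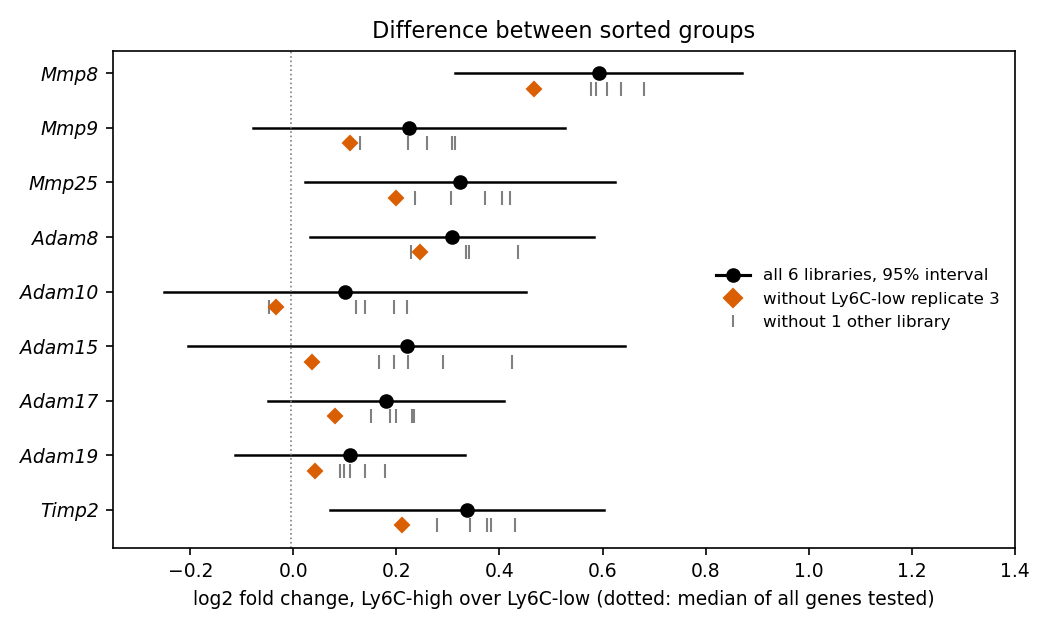
Log2 fold change of each of the 9 genes, Ly6C-high over Ly6C-low, from edgeR with its 95% interval (black). Orange diamonds give the value without Ly6C-low replicate 3, grey ticks the value without each other library, and the dotted line the median of all genes. The intervals of Mmp8, Mmp25, Adam8 and Timp2 lie above 0 with all 6 libraries, and that of Mmp8 runs from 0.31 to 0.87.

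Mmp8 (ENSMUSG00000005800, chromosome 9) encodes the neutrophil collagenase, which cuts fibrillar collagens. Its level was 1401, 1447 and 1395 TPM in Ly6C-high libraries and 1106, 1059.8 and 839 TPM in Ly6C-low libraries. The means were 1414 ± 27.9 TPM in Ly6C-high and 1001 ± 143 TPM in Ly6C-low neutrophils (SD, n = 3 each). All 3 Ly6C-high libraries lay above all 3 Ly6C-low libraries, and the lowest value was that of Ly6C-low replicate 3. The fitted fold was 1.51, with a 95% interval from 1.24 to 1.83 (log2 fold change 0.59, SE 0.13, unadjusted p = 0.000606, adjusted p = 0.153, edgeR). By unadjusted p it ranked 44 of 11406 genes. On CPM, which are counts scaled to library size with TMM factors and not corrected for length, 3 of the 9 genes did not overlap between groups, with Ly6C-high above in each (Mmp8, Adam17 and Timp2), against 10.3% of all genes with Ly6C-high above and 10.9% with it below. Mmp8 has a single annotated transcript, so its value does not depend on how reads were divided between isoforms.

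The promoter windows of Mmp8, Adam8 and Adam10 are shown because they belong to the member with the smallest p, to the ADAM with the smallest p, and to an ADAM whose direction was not stable. They are RefSeq sequences (GRCm38.p6) from 250 bases before to 50 bases after the annotated start, 5′ to 3′ on the gene's strand, at chr9:7558179-7558478 (plus strand), chr7:139992513-139992812 (minus strand) and chr9:70678732-70679031 (plus strand). Capitals mark, on either strand, the TATA box core TATAA, the C/EBP core TTGCNNAA and the GC box GGGCGG. In the Mmp8 window the TATAA matches on the 2 strands overlap.
Mmp8: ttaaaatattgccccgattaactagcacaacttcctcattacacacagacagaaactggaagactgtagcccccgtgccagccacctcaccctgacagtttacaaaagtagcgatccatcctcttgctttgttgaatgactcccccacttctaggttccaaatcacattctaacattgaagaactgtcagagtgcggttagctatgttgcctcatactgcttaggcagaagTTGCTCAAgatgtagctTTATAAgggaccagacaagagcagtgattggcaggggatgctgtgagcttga
Adam8: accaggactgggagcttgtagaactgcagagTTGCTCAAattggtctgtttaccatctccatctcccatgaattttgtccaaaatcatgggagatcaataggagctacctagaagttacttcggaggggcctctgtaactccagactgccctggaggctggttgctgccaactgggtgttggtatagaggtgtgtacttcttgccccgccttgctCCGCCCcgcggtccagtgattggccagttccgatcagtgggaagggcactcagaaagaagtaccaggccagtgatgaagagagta
Adam10: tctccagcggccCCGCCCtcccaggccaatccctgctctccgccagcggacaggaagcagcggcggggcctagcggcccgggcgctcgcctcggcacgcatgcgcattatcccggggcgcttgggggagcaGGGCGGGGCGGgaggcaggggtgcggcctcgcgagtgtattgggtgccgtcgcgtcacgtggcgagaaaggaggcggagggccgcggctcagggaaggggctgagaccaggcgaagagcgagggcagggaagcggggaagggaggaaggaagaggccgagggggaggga
Windows were found for 8 of the 9 genes, and 32851 windows served as background. Adam19 had 3 windows. A gene was counted if any of its windows held a match, whereas the background percentages are of single windows. The Mmp8 window held a TATAA core close to the annotated start and a TTGCNNAA match 19 bases upstream of the start, but no GC box. The Adam8 window held a TTGCNNAA match 219 bases upstream and a GC box 35 bases upstream. In the Adam10 window there were 3 GC boxes, of which a pair share a base, and neither of the other motifs. Among the 8 genes, TATAA was found in 1 (24.9% of all windows hold it), TTGCNNAA in 3, which are Mmp8, Adam8 and Adam15 (10.8% of windows), and GGGCGG in 7 (35.7% of windows). The AP-1 site TGANTCA was found in 1 of the 8 (7.8% of windows) and the ETS core GGAAGT in 2 (23.8% of windows), of which 1 is Mmp8, at 221 bases upstream on the opposite strand and not capitalised. The G and C content was 46.0% for Mmp8, 52.3% for Adam8 and 73.3% for Adam10, with a median of 52.7% over all windows. These are letter matches and describe no binding.

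Mmp9 (ENSMUSG00000017737, chromosome 2) encodes gelatinase B, which cuts denatured collagen and basement-membrane collagen. It was the most abundant of the 9 genes in each of the 6 libraries, at 1611, 1852 and 1461 TPM in Ly6C-high and 1643, 1559 and 1299 TPM in Ly6C-low libraries. The groups overlapped. The fitted fold was 1.17 with an interval from 0.947 to 1.44 (adjusted p = 0.494, edgeR), an interval that holds differences in either direction. Its log2 fold change, 0.22, was 0.11 without Ly6C-low replicate 3 and 0.13 without Ly6C-high replicate 2. The ratio of Mmp8 to Mmp9 in TPM was 0.870, 0.781 and 0.955 in Ly6C-high and 0.673, 0.680 and 0.645 in Ly6C-low libraries. That ratio did not overlap between the groups, and it ranged less in Ly6C-low than in Ly6C-high libraries.

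Mmp25 (ENSMUSG00000023903, chromosome 17) encodes a membrane-anchored protease of leukocytes, also called leukolysin. Its level was 229.6, 255 and 199 TPM in Ly6C-high and 213, 207 and 163 TPM in Ly6C-low libraries. The groups overlapped through Ly6C-high replicate 3. The fitted fold was 1.25 with an interval from 1.02 to 1.54 (unadjusted p = 0.0375, adjusted p = 0.324, edgeR), and the log2 fold change of 0.32 became 0.20 without Ly6C-low replicate 3. Across the 6 libraries log2 CPM of Mmp25 and Mmp9 varied together, with Pearson r 0.99, the highest of the pairs of members. As a description over 6 libraries that share 1 low library, r was 0.97 for Mmp25 with Timp2, 0.95 for Mmp8 with Timp2, and -0.04, the lowest, for Adam8 with Adam10.

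Adam8 (ENSMUSG00000025473, chromosome 7), a protease of myeloid cells that can shed membrane proteins, was the most abundant ADAM in each of the 6 libraries. It had 170.3, 245 and 265 TPM in Ly6C-high and 192, 203 and 204 TPM in Ly6C-low libraries. The Ly6C-high libraries lay on both sides of the Ly6C-low ones. The fitted fold was 1.24 with an interval from 1.02 to 1.498 (unadjusted p = 0.0319, adjusted p = 0.312, edgeR). Of its TPM, transcripts annotated as retained intron took 15.4%, 25.2% and 34.1% in Ly6C-high and 17.9%, 26.8% and 41.8% in Ly6C-low libraries. Over all transcripts, the retained-intron class took 2.06%, 2.31% and 2.99% of counts in Ly6C-high and 2.22%, 2.39% and 3.26% in Ly6C-low libraries, so the libraries rank alike within each group on both measures. The Adam8 share is of TPM and the share over all transcripts is of counts, so their sizes cannot be set side by side. The part of that library-wide difference in Adam8 was not tested. On protein-coding transcripts alone, Adam8 had 144, 183 and 172 TPM in Ly6C-high and 158, 148 and 116 TPM in Ly6C-low libraries, which overlap.

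**Figure D3:**
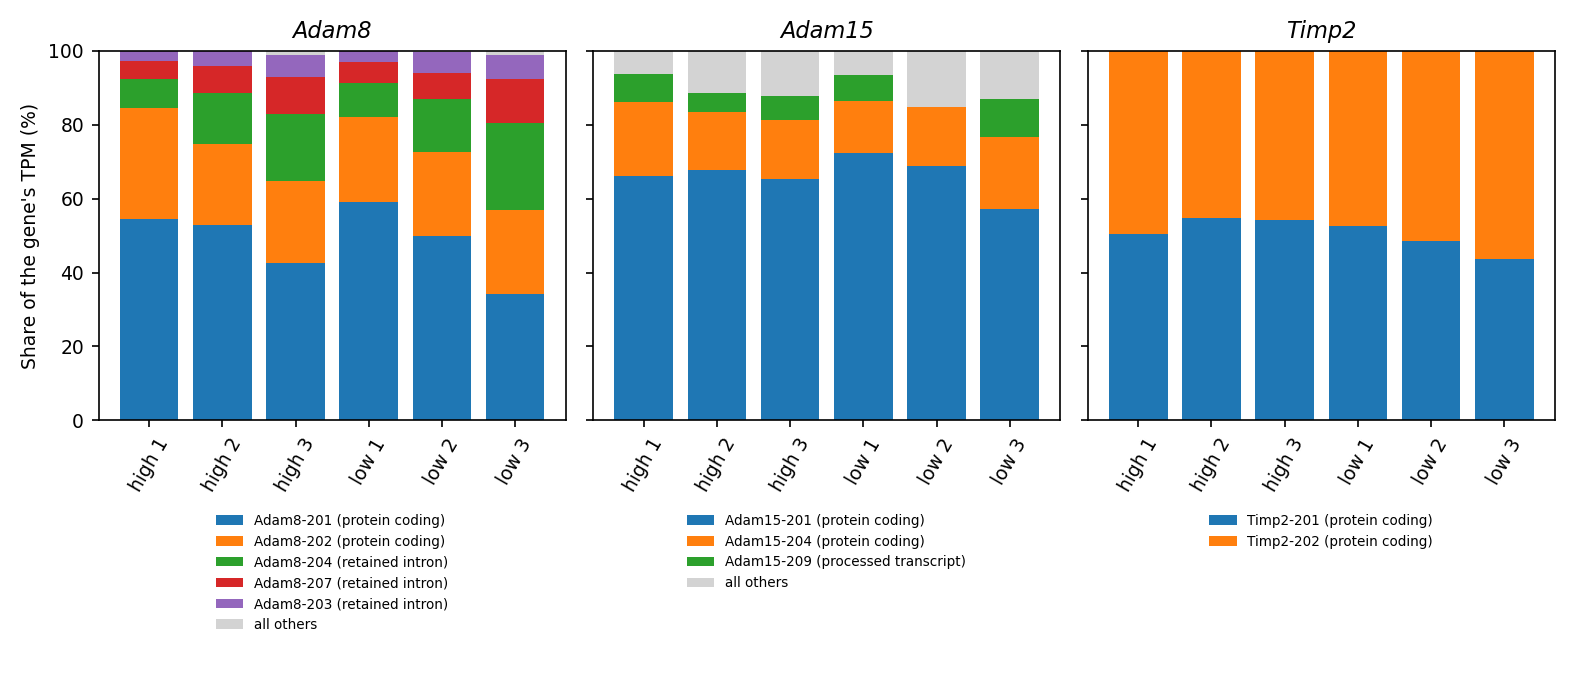
Share of TPM (%) taken by the annotated transcripts of Adam8, Adam15 and Timp2 in each library, stacked, Ly6C-high left of Ly6C-low. For Adam8 the retained-intron share runs from 15.4% to 34.1% in Ly6C-high and from 17.9% to 41.8% in Ly6C-low libraries.

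Adam10 (ENSMUSG00000054693, chromosome 9) and Adam17 (ENSMUSG00000052593, chromosome 12) encode the main sheddases of membrane proteins. ADAM17 is also known as the TNF-converting enzyme. Adam10 had 71.7, 57.8 and 53.2 TPM in Ly6C-high and 73.5, 64.3 and 49.7 TPM in Ly6C-low libraries. These values overlap almost entirely, with a fitted fold of 1.07 and an interval from 0.840 to 1.37 (adjusted p = 0.814, edgeR). Its direction turned to -0.05 on the log2 scale without Ly6C-high replicate 1 and to -0.03 without Ly6C-low replicate 3, and with library size alone as the scaling it was -5.2e-05. Adam17 had 66.0, 65.2 and 66.1 TPM in Ly6C-high and 64.4, 71.9 and 55.2 TPM in Ly6C-low libraries. In TPM the Ly6C-high libraries were close to one another, and the Ly6C-low libraries spread on both sides of them. Of the 71.9 TPM in Ly6C-low replicate 2, 8.20 TPM was the transcript Adam17-206, from 66.4 estimated counts. In CPM all Ly6C-high libraries lay above (271, 257 and 254 CPM in Ly6C-high, 248, 246 and 197 CPM in Ly6C-low libraries). The fitted fold for Adam17 was 1.13 with an interval from 0.967 to 1.33 (adjusted p = 0.463, edgeR), and the log2 fold change of 0.18 became 0.08 without Ly6C-low replicate 3. The ratio of Adam10 to Adam17 in TPM was 1.09, 0.888 and 0.804 in Ly6C-high and 1.14, 0.895 and 0.900 in Ly6C-low libraries, and overlapped. The gene Iah1 lies antisense to Adam17, at up to 134 counts in a library, and the strand setting of the quantification is not given in the sources used here.

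Adam15 (ENSMUSG00000028041, chromosome 3) encodes metargidin, a widely expressed ADAM named for an integrin-binding motif of the human protein. It was the least abundant of the 9 genes by mean level in both groups, at 59.7, 64.1 and 55.7 TPM in Ly6C-high and 66.6, 53.4 and 43.9 TPM in Ly6C-low libraries. The Ly6C-low libraries covered the whole range of the Ly6C-high ones. The fitted fold was 1.16 with the interval 0.868 to 1.56 (adjusted p = 0.631, edgeR), the widest log2 interval of the 9 genes. Its log2 fold change, 0.22, was 0.04 without Ly6C-low replicate 3 and 0.42 without Ly6C-low replicate 1. Of its 13 annotated transcripts, Adam15-201 took 66.4% ± 1.30 of TPM in Ly6C-high and 66.1% ± 7.89 in Ly6C-low libraries (SD, n = 3 each).

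Adam19 (ENSMUSG00000011256, chromosome 11) encodes meltrin beta, an ADAM that can shed neuregulin. Its mean was 129 TPM in Ly6C-high and 129 TPM in Ly6C-low neutrophils, from 121, 131 and 136 TPM in the Ly6C-high libraries and 136, 129.8 and 122 TPM in the Ly6C-low libraries. These were the closest means of the 9 genes in TPM, with a ratio of 0.999. On the TMM-scaled counts the fitted fold was 1.08, interval 0.925 to 1.26 (adjusted p = 0.660, edgeR), and the log2 fold change of 0.11 became 0.04 without Ly6C-low replicate 3 and 0.18 without Ly6C-low replicate 1. The TPM means of all tested genes had a median log2 ratio of -0.10, against -0.00 on the TMM scale, and relative to that median Adam19 stood at 0.10.

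Timp2 (ENSMUSG00000017466, chromosome 11) encodes a secreted inhibitor of metalloproteases. Its level was 125, 129.8 and 115 TPM in Ly6C-high and 116, 118 and 101 TPM in Ly6C-low libraries. The TPM groups overlapped through Ly6C-high replicate 3, while in CPM all Ly6C-high libraries lay above (246, 267 and 232 CPM in Ly6C-high, 222, 208 and 161 CPM in Ly6C-low libraries). The fitted fold was 1.26 with an interval from 1.05 to 1.52 (unadjusted p = 0.0176, adjusted p = 0.265, edgeR), and the log2 fold change of 0.34 became 0.21 without Ly6C-low replicate 3. Timp2-201, which with Timp2-202 makes up its annotation, took 50.4%, 54.9% and 54.1% of TPM in Ly6C-high and 52.6%, 48.4% and 43.7% in Ly6C-low libraries. The gene Cep295nl overlaps Timp2 on the same strand, at up to 42.0 counts in a library.

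The summed TPM of Mmp8, Mmp9 and Mmp25 stood to Timp2 at a ratio of 25.9, 27.4 and 26.7 in Ly6C-high and 25.5, 24.0 and 22.8 in Ly6C-low libraries. In TPM the groups did not overlap, with means of 26.7 ± 0.728 in Ly6C-high and 24.1 ± 1.33 in Ly6C-low neutrophils (SD, n = 3 each). Timp2-202 took 45.1% to 49.7% of Timp2 TPM in Ly6C-high and 47.4% to 56.3% in Ly6C-low libraries, from 459 to 555 estimated counts. With Timp2-201 TPM alone as the divisor, or with CPM in place of TPM, the ratio overlapped between the groups. How often ratios of other genes do not overlap was not counted. The 5 ADAM genes summed to 542 ± 47.4 TPM in Ly6C-high and 509.96 ± 31.5 TPM in Ly6C-low neutrophils, a smaller difference than the spread of the Ly6C-high libraries. Ratios of RNA levels do not give ratios of active enzyme to inhibitor.

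**Figure D4:**
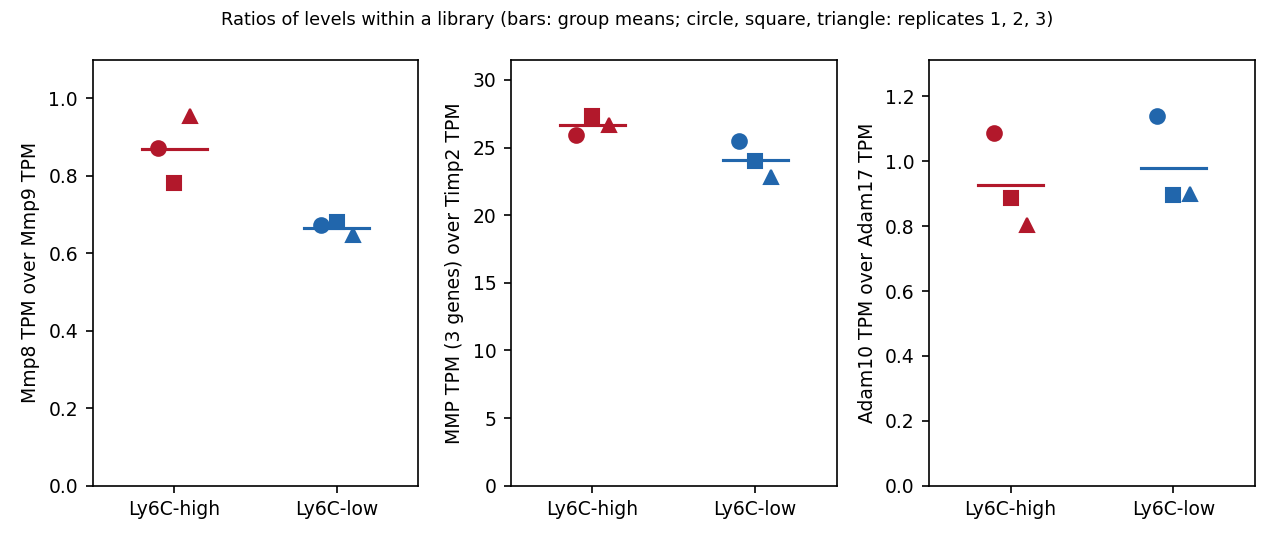
Ratios of TPM in each library, Ly6C-high left of Ly6C-low: Mmp8 to Mmp9, the 3 matrix metalloproteases to Timp2, and Adam10 to Adam17, with a line at each group mean. In TPM the first and second do not overlap between groups, and Adam10 to Adam17 does. With CPM in place of TPM the second overlaps.

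Timp2 was the one TIMP gene with more than trace counts. Timp1, induced in many tissues on injury, had 1, 0 and 1 counts in Ly6C-high and 1, 1 and 0 in Ly6C-low libraries. Timp3 reached at most 9.77 estimated counts in a library and Timp4 2.01. Reck, which encodes a membrane-anchored inhibitor of matrix metalloproteases, was the one other inhibitor of 8 listed that was tested. It had 29.9, 33.1 and 40.7 TPM in Ly6C-high and 23.5, 26.0 and 25.9 TPM in Ly6C-low libraries, and the groups did not overlap. Its log2 fold change was 0.44 (SE 0.10, unadjusted p = 0.00121, adjusted p = 0.172, edgeR). DESeq2 gave it an adjusted p of 0.0398, and without a filter on low counts edgeR gave 0.0134, and over the 15 alternatives the adjusted p ran from 0.0134 to 0.568.

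Most other family members were near or at 0. Of 20 other MMP genes 5 were tested and 7 had no counts. None of the 5 passed either threshold, and their median log2 fold change was 0.17, which turned to -0.04 without Ly6C-high replicate 1 and to -0.19 without Ly6C-high replicate 3. The most abundant, Mmp19, had 11.0, 6.66 and 9.27 TPM in Ly6C-high and 17.01, 9.501 and 5.23 TPM in Ly6C-low libraries, far below Mmp25. Mmp2, the gelatinase A gene, averaged 1.36 TPM in Ly6C-high and 1.197 TPM in Ly6C-low neutrophils. Mmp27 averaged 1.01 TPM in Ly6C-high and 0.847 TPM in Ly6C-low neutrophils, and Mmp14 0.141 TPM in Ly6C-high and 0.212 TPM in Ly6C-low neutrophils. Of 29 other ADAM genes 5 were tested and 12 had no counts. Adam9, a widely expressed sheddase and the most abundant of these, had 19.9, 18.5 and 22.1 TPM in Ly6C-high and 18.7, 17.4 and 18.3 TPM in Ly6C-low libraries (log2 fold change 0.22, SE 0.09, unadjusted p = 0.0310, adjusted p = 0.310, edgeR). It was the one of the 5 with an unadjusted p under 0.05, where 6.92% of all genes lay higher at that level. Adam3, a sperm protein in mouse, stood next at 3.63 TPM in Ly6C-high and 4.195 TPM in Ly6C-low neutrophils. Adam1a and Adam22 reached at most 0.363 and 0.342 TPM in a library. Of 19 ADAMTS genes, secreted relatives of the ADAMs, 4 were tested, and none passed either threshold. Adamts10 led them with means of 1.39 TPM in Ly6C-high and 1.56 TPM in Ly6C-low neutrophils. DESeq2, limma voom and edgeR without a filter on low counts called 0 genes of these lists. Most of these genes had few counts, and DESeq2 gave no adjusted p to genes of low count.

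Genes for the maturation and transport of ADAM10 and ADAM17 had fold changes on both sides of 0. Of 14 listed, 10 were tested and 0 passed the adjusted threshold in edgeR. At an unadjusted p under 0.05, 0 were higher and 1 was lower, against 6.92% and 7.34% of all genes. The median log2 fold change was 0.07. The lower one, Pacs2, a sorting protein reported to help recycle ADAM17, averaged 5.07 TPM in Ly6C-high and 7.53 TPM in Ly6C-low neutrophils (log2 fold change -0.44, SE 0.12, adjusted p = 0.192, edgeR). Without a filter on low counts edgeR called it, with an adjusted p of 0.0341. Furin, a proprotein convertase that removes the prodomain of ADAMs, had 107, 126 and 113 TPM in Ly6C-high and 141, 137 and 132 TPM in Ly6C-low libraries. These did not overlap in TPM, while the fitted log2 fold change was -0.15 (SE 0.10, adjusted p = 0.501, edgeR). The TPM means of all tested genes had a median log2 ratio of -0.10, and the share without overlap in TPM was not counted. On CPM 1 of the 10 tested maturation genes lay lower without overlap, against 10.9% of all genes. Tspan14, a tetraspanin partner of ADAM10, averaged 66.0 TPM in Ly6C-high and 64.7 TPM in Ly6C-low neutrophils. Rhbdf2, the iRhom2 gene that ADAM17 needs for its maturation in myeloid cells, averaged 38.0 TPM in Ly6C-high and 37.9 TPM in Ly6C-low neutrophils.

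Of 25 membrane proteins known to be shed, 19 were tested and 0 passed the adjusted threshold in edgeR. At an unadjusted p under 0.05, 2 were higher in Ly6C-high neutrophils (Tnf and Axl) and 2 were lower (Icam1 and Areg). Of all genes tested, 6.92% lay higher and 7.34% lower at that level. The list's median log2 fold change was 0.06. Cd44, a hyaluronan receptor, averaged 645 TPM in Ly6C-high and 595 TPM in Ly6C-low neutrophils. Icam1, an adhesion ligand, averaged 4.37 TPM in Ly6C-high and 6.65 TPM in Ly6C-low neutrophils (log2 fold change -0.51, SE 0.16, adjusted p = 0.221, edgeR). Without a filter on low counts edgeR called Icam1, with an adjusted p of 0.0434. Axl and Areg rested on 64 and 99 counts over all 6 libraries.

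Of 9 activating proteases and binding partners of matrix metalloproteases, 6 were tested and 0 passed the adjusted threshold in edgeR. At an unadjusted p under 0.05, 2 were higher (Plau and Lcn2), against 6.92% of all genes. The list's median log2 fold change was 0.07. Lcn2, whose product binds MMP9 in human neutrophils, had 8220.5, 8797 and 7769 TPM in Ly6C-high and 7695, 7305 and 4816 TPM in Ly6C-low libraries. The groups did not overlap, and Ly6C-low replicate 3 was far below the rest (log2 fold change 0.41, SE 0.17, adjusted p = 0.327, edgeR). Without that library its log2 fold change was 0.22, and without a filter on low counts edgeR called Lcn2, with an adjusted p of 0.0370. Plau, the urokinase gene, averaged 4.601 TPM in Ly6C-high and 3.69 TPM in Ly6C-low neutrophils, and its receptor gene Plaur 195 TPM in Ly6C-high and 182 TPM in Ly6C-low neutrophils. Elane and Ctsg, the serine proteases of azurophil granules, had 12 and 20 counts in all and were not tested. Among the maturation genes, the shed proteins and these partners, limma voom called 0 genes. DESeq2 called 0 as well, but gave Icam1 and other genes of low count no adjusted p. With library size alone each list's median turned to -0.04. On leaving out each library in turn the median ran from -0.03 (without Ly6C-high replicate 3) to 0.08 for the maturation genes, and it was -0.02 without Ly6C-low replicate 1. For the shed proteins it ran from -0.02 (without Ly6C-low replicate 3) to 0.14 (without Ly6C-low replicate 2). For the partners it ran from 0.00 (without Ly6C-high replicate 2) to 0.14 (without Ly6C-low replicate 2).

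Genes for proteins stored with MMP8 and MMP9 in granules had fitted log2 fold changes above 0, as had Mmp8 and Mmp9, though the interval of Mmp9 held 0. So had 9 of the 10 neutrophil markers, a list that includes Mmp8 and Mmp9, with a median of 0.22. Of 15 granule genes, Lcn2 among them, all were tested and 15 had a log2 fold change above 0 in edgeR (0.004 to 0.45), against 49.2% of all genes, with a median of 0.33. With library size alone 13 were above 0, by TPM means 13 and with length-scaled TPM 14. None passed the adjusted threshold, and by unadjusted p 6 lay higher at under 0.05, against 6.92% of all genes, and 0 lower. DESeq2 called 1, Fpr1, against 2.02% of its genes, limma voom called 0, and edgeR without a filter on low counts called 3 (Cybb, Lcn2 and Ltf), against 2.13%. Without Ly6C-low replicate 3 the median was 0.22. Ngp, neutrophilic granule protein, averaged 11421 TPM in Ly6C-high and 9407 TPM in Ly6C-low neutrophils. Fpr1, a formyl peptide receptor, averaged 538 TPM in Ly6C-high and 454 TPM in Ly6C-low neutrophils (log2 fold change 0.34, SE 0.09, adjusted p = 0.194, edgeR). Itgam, the CD11b gene, averaged 546 TPM in Ly6C-high and 475 TPM in Ly6C-low neutrophils, and Cybb, the NADPH oxidase subunit gp91phox, 500.0 TPM in Ly6C-high and 411 TPM in Ly6C-low neutrophils.

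**Figure D5:**
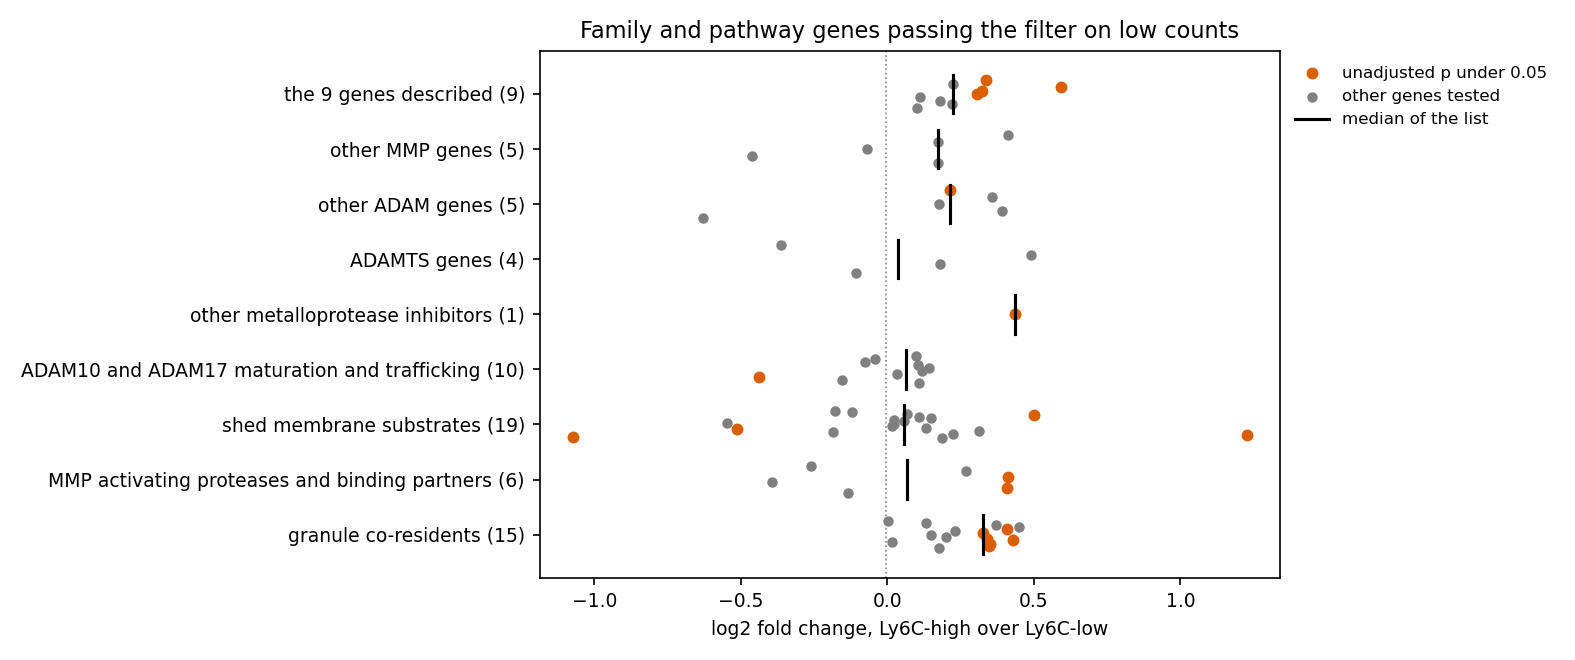
Log2 fold change, Ly6C-high over Ly6C-low, of every tested gene in each list, with the list's median as a bar. The 9 genes and the 15 granule genes lie above 0, with medians of 0.22 and 0.33.

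By the likeness of log2 CPM over the 6 libraries among 6968 genes, the genes nearest to Mmp8 were Glrx, Nt5e, Tnnt1, Usp15 and Stx7, with Pearson r from 0.991 to 0.995. Among the nearest to Mmp9 were mt-Atp6, Vdac1, Mmp25 and Arhgap23, each with r of 0.99. Over 6 libraries, with Ly6C-low replicate 3 low for all 9 members, these values describe the libraries and nothing further.

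Other cell types were traced by marker lists. In bulk RNA fewer cells of a type and less RNA per cell cannot be told apart. At an unadjusted p under 0.05, 6.92% of all genes tested lay higher in Ly6C-high neutrophils and 7.34% lower. Basophil and mast cell markers (6 of 7 tested, 3 of the 6 lower at an unadjusted p under 0.05) summed to 2.51 to 4.64 TPM in Ly6C-high and 6.80 to 37.0 TPM in Ly6C-low libraries, the highest being Ly6C-low replicate 3. Of these markers limma voom called 0, and edgeR without a filter on low counts called 5, all lower. DESeq2 called 0, but it gave no adjusted p to genes of low count such as Icam1, at 1334 counts in all. Mcpt8 and Prss34, the most abundant of these markers, had 313 and 177, so DESeq2 could not call either. Eosinophil markers (6 of 8 tested, 4 lower at that level, and Alox15 lower past the adjusted threshold) summed to 19.2 to 23.7 TPM in Ly6C-high and 36.8 to 39.6 TPM in Ly6C-low libraries. Most of that sum was Siglecf, at 14.6 TPM in Ly6C-high and 22.7 TPM in Ly6C-low neutrophils. Alox15 was also called by limma voom, but not with length-scaled TPM, or without any single Ly6C-high library or Ly6C-low replicate 2. DESeq2 did not call it either, but gave no adjusted p to genes of low count. Without a filter on low counts edgeR called 5 eosinophil markers, all lower. Of their defining genes, Epx had 1 count in all 6 libraries and Prg2 was at 0 in Ly6C-high libraries. Monocyte and macrophage markers (6 of 7 tested) summed to 105 to 111 TPM in Ly6C-high and 116 to 135 TPM in Ly6C-low libraries, of which most was Csf1r, at 97.0 TPM in Ly6C-high and 117 TPM in Ly6C-low neutrophils. Of the 6, 4 lay higher in Ly6C-high neutrophils at an unadjusted p under 0.05 (Ccr2, Cx3cr1, Ms4a6c and F13a1) and 0 lower, 0 passed the adjusted threshold in edgeR, DESeq2 or limma voom, and the median log2 fold change was 0.74. Without a filter on low counts edgeR called Ccr2 and Cx3cr1. Those 4 genes averaged 3.82 TPM or less in Ly6C-high and 2.56 TPM or less in Ly6C-low neutrophils. B cell markers lay at 8.30 to 11.2 TPM in Ly6C-high and 8.29 to 11.8 TPM in Ly6C-low libraries, and T and NK cell markers at 29.5 to 48.1 TPM in Ly6C-high and 26.2 to 37.3 TPM in Ly6C-low libraries. Nearly all of that sum was Cd3d, at 37.0 TPM in Ly6C-high and 30.2 TPM in Ly6C-low neutrophils, while the other 6 markers had at most 17 counts each in a library. Platelet markers lay at 10.04 to 21.6 TPM in Ly6C-high and 12.9 to 26.7 TPM in Ly6C-low libraries, and red cell markers at 685 to 2422 TPM in Ly6C-high and 1729 to 2505 TPM in Ly6C-low libraries. Their part in the levels of the 9 genes was not tested. On CPM the lowest of the 6 libraries was Ly6C-low replicate 3 for 9 of the 9 genes, and on TPM for 7 of the 9.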

How the data were processed

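Blood neutrophils of tumour-bearing mice were profiled by bulk poly(A) RNA-seq in 3 Ly6C-high and 3 Ly6C-low libraries. The authors deposited estimated counts and TPM per transcript for each library, with effective lengths, per the file headers. The submitters' processing notes name kallisto and GRCm39. The kallisto version, index and strand setting are not given in the labels or headers. Transcript IDs without version were matched to GENCODE M21 (99.04% of 117486 transcripts), and estimated counts and deposited TPM values were summed per gene. Counts were rounded and tested with edgeR 4.0.16 (R 4.3.3): filterByExpr, TMM, robust quasi-likelihood F test, group alone, Benjamini-Hochberg over 11406 genes, adjusted p 0.05. SE is the size of the log2 fold change over the square root of F. Alternatives included DESeq2 1.42.0, limma 3.58.1 voom, other scalings and filters, a replicate term and leaving out each library. DESeq2 gave an adjusted p to 5244 genes and left out genes of low mean count, so it could not call those. The main edgeR fit was also run on simulated counts, and the alternatives were not. No library was a copy of another of its group. With 3 libraries a group, an exact permutation test could not go below p = 0.1, so none is given. Kallisto divides reads between transcripts that share sequence, so transcript shares are estimates. The genes and lists were chosen with earlier results of these data known. Text names the 9 genes, and from each list genes among the 3 smallest unadjusted p and the 2 highest mean TPM, plus for Mmp8 and Mmp9 the 5 genes with the highest correlation of log2 CPM. Rhbdf2, Tnf, Elane, Ctsg, Timp1, Timp4, Epx, Prg2, Alox15, Ccr2, Cx3cr1, Ms4a6c, F13a1, Csf3r, Ltf, Ly6c1, Ly6c2 and Ly6g were named outside that rule, after their values were seen. Some genes that the rule names are not reported here. Motifs were searched in RefSeq windows of GRCm38.p6, matched by symbol.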

Additional observations from a re-analysis of the deposited data

How the results depend on the processing

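The count of all genes past the threshold was 4 (2 higher and 2 lower in Ly6C-high neutrophils) and became 61 with a replicate block, 8 with library size alone (2 higher and 6 lower), 439 without a filter on low counts, 106 with DESeq2 and 2 with length-scaled TPM. Leaving out each library gave 2 to 22, the 22 when Ly6C-low replicate 3 was left out, and the 2 when replicate 2 of either group or replicate 3 of the Ly6C-high group was. The count among the 9 genes was 0 and became 1, Mmp8 each time, with the replicate block (log2 fold change 0.61, adjusted p = 0.0368, edgeR), without the filter (0.58, adjusted p = 0.000204) and with DESeq2 (0.60, adjusted p = 0.00166). The fit without the filter hardly used each gene's own spread. At an unadjusted p under 0.05 the count among the 9 was 4 higher and became 6 with the replicate block, 2 with library size alone or length-scaled TPM, and 1 to 5 on leaving out each library. The share of all genes higher at that level was 6.92% in the main fit and 5.66% without Ly6C-low replicate 3. It was not counted in the other fits, so their counts cannot be set against a background. By adjusted p, leaving out each library gave 0 to 1, the 1 being Mmp8 without Ly6C-low replicate 3 (0.47, adjusted p = 0.0235, edgeR). Over 15 alternatives the log2 fold change of Mmp8 lay between 0.47 and 0.68, with adjusted p from 0.000204 to 0.568. Adam10 reversed to -5.2e-05 with library size alone, and leaving out each library gave -0.048 to 0.22. The other 8 genes kept their sign under all 15 alternatives, but without Ly6C-low replicate 3 the log2 fold changes of Mmp9, Mmp25, Adam15, Adam17, Adam19 and Timp2 were smaller by over 1.5 times. The cause of these changes was not tested. Library size alone in place of TMM moved the median of all genes by -0.11 on the log2 scale, and 8 of the 9 genes stayed above 0. Whether equal replicate numbers mark paired libraries was not settled. Deviations of same-numbered libraries correlated at 0.24, -0.04 and 0.24 across 11406 genes, and those of differently numbered libraries at -0.31 to 0.11. Replicates 1 and 3 correlated best with their own number, and replicate 2 of either group did not. Genes at a few counts, such as Timp1, have no usable fold change.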

Other observations

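Adam10-202, a minor transcript annotated for nonsense-mediated decay, took 2.81%, 5.70% and 5.16% of Adam10 TPM in Ly6C-high and 16.6%, 10.3% and 0% in Ly6C-low libraries, the 0 being replicate 3. On protein-coding transcripts alone Adam10 averaged 57.7 ± 10.03 TPM in Ly6C-high and 55.7 ± 5.83 TPM in Ly6C-low neutrophils (SD, n = 3 each), which overlap. Adam17-206, of the same class, took 11.4% of Adam17 TPM in Ly6C-low replicate 2, from 66.4 estimated counts, and at most 1.91% in any other library.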
